A study of Homo sapiens with 22 samples.

Results

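Lysosome and autophagy genes of the human tumour cells were followed in xenografts of H3122, an established ALK-positive human lung adenocarcinoma cell line, grown in immunodeficient mice. The 41 genes were taken as listed symbols (lysosomal hydrolases and membrane proteins, autophagy genes and the TFEB family). All 41 symbols occurred once among the 58735 genes of the human table. Bulk RNA sequencing of tumour tissue covered 22 samples, and every group carried H3122 tumours. The host was either NSG or hHGF-NSG, the latter an NSG mouse humanized for HGF, the ligand of the MET receptor. In each host the tumours were therapy naive or had received alectinib, an inhibitor of the ALK kinase, for 2 or 6 weeks. NSG groups held 4 samples each, and hHGF-NSG groups held 3 naive, 4 samples of 2 weeks and 3 samples of 6 weeks. The alectinib dose, the age of the mice and the promoter driving human HGF were not given in the sources used here, and H3122 is a single cell line. Nothing in the labels says that samples came from separate animals, so p-values measure only the spread between these samples.

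Lysosomes are acidic organelles that break down proteins, sugars and lipids. A proton pump, the V-ATPase, acidifies them, and cathepsins and other hydrolases do the digesting. Autophagy wraps cytoplasm in a double membrane, the autophagosome, and delivers it to the lysosome. Transcription factors of the TFEB family bind a motif containing CACGTG near many of these genes and are held in the cytoplasm when mTORC1 is active at the lysosomal surface. In lung epithelium and lung adenocarcinoma the same organelles also serve secretory and antigen-processing functions, with cathepsin H processing surfactant proteins and cathepsin S trimming the invariant chain of MHC class II.

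Human reads per library ranged from 10688632 to 19065656, and mouse reads from 895826 to 5766509 in the 20 libraries with mouse values. Mouse reads made up 5.5 to 12% of all reads in NSG naive libraries and 6.8 to 13.5% in hHGF-NSG naive libraries. At 2 weeks the ranges were 12.1 to 20.2% in NSG and 8.7 to 17.4% in hHGF-NSG hosts, and at 6 weeks 16.9 to 21.9% and 24.3 to 29%. The 6 week ranges lay above the naive ones in both hosts, while the hHGF-NSG range at 2 weeks overlapped its naive range. Human HGF had 43 reads in the library labelled NSG naive replicate 1, against 0 to 6 reads in the other 11 NSG libraries and 13 to 79 in the 10 hHGF-NSG libraries, which goes against its host label. Counts and the leading NSG changes are also given without it. The human values were then compared with markers of cells other than tumour. The 12 leukocyte markers summed to 0.621 to 2.42 FPKM in the human table, and TYROBP, C1QA, C1QB and C1QC had 0 human reads in all 22 libraries. Mouse C1qa, the counterpart of C1QA, stood at 739 to 1400 FPKM in the mouse table. Other markers of the 12 did have human reads, such as CD14 (5 to 25 per library), LYZ (1 to 15) and LAPTM5 (0 to 29). Whether mouse reads were among them was not tested. The 7 lung epithelial markers summed to 2570 to 4010 FPKM in naive and 1240 to 1740 FPKM in treated libraries, and none was at 0. The sum follows the keratins: NKX2-1, the lung lineage factor, rose in the 4 treatment comparisons, from 85.8 to 235 FPKM in NSG and from 79.8 to 321 FPKM in hHGF-NSG hosts at 6 weeks, and EPCAM was called lower in 1 of the 4. The 6 fibroblast markers, led by COL1A1, summed to 26.8 to 112 FPKM in naive and 5.15 to 16.4 FPKM in treated libraries. DCN was at 0 throughout the treated hHGF-NSG libraries and PDGFRB at 0 in all treated groups but hHGF-NSG at 2 weeks. Both were near 0 everywhere, with 0 to 5 reads of DCN and 0 to 2 of PDGFRB per library, naive ones included. The 5 endothelial markers summed to 4.58 to 19.9 FPKM. The part of these marker shifts in the results below was not tested. H3122 cells were the only human cells stated, so these stromal and leukocyte markers do not measure numbers of human stromal cells or leukocytes. In bulk tissue, fewer tumour cells expressing a gene and less of its RNA per cell cannot be told apart.

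The CACGTG core that TFEB-family factors bind was searched on both strands in the 300 bases around the RefSeq start of each gene (GRCh38.p14, 250 bases before to 50 after), where 31 of the 41 genes had an entry. It was found in 8 of those 31 promoters (25.8%) and in 7.43% of all 27305 promoters. With 1 more base, TCACGTG, the shares were 22.6% and 3.82%, and for the palindrome TCACGTGA, which holds both shorter motifs, they were 16.1% and 1.04%. The 41 genes were listed for a pathway whose regulators bind CACGTG, so these shares describe the list and are not a test. Windows from 7 genes are shown because they carry the motif that links this pathway to its regulators. They were chosen after values were seen. Capitals mark CACGTG, and each window runs 5′ to 3′ on the strand of its gene.
LAMP1, chr13:113297199-113297228, plus strand: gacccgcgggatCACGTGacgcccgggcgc
LAMP1, chr13:113297226-113297255, plus strand: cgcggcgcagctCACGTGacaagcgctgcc
CD63, chr12:55729172-55729201, minus strand: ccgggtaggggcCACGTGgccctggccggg
MCOLN1, chr19:7522571-7522600, plus strand: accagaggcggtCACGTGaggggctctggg
MCOLN1, chr19:7522598-7522627, plus strand: gggctaccgggtCACGTGaccgaggcacag
CTSA, chr20:45891281-45891310, plus strand: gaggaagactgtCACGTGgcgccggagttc
CTSA, chr20:45891298-45891327, plus strand: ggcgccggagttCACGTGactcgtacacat
CTSD, chr11:1763957-1763986, minus strand: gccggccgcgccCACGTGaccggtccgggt
NEU1, chr6:31862930-31862959, minus strand: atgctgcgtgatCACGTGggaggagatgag
ATP6V0D1, chr16:67481199-67481228, minus strand: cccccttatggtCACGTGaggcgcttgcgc
The gene not shown is CLN3. LAMP1 held 6 copies in its window, the most of the 8, of which the 2 nearest its start are printed. CTSL, CTSH, GUSB, ATG9A, ATG7, GABARAPL1 and GABARAPL2, whose levels are described below, had no CACGTG in their windows. A match of letters is a description of the promoter, not a measured binding site.

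Levels below are FPKM, with the length taken over all annotated exons of a gene, so levels compare only roughly between genes. Changes are log2 differences of FPKM + 1 with their standard error (SE), which understate the change of low genes. A gene was called when limma's Benjamini-Hochberg adjusted p was under 0.05 over 16029 tested human genes. Of the 41 genes, 40 passed the filter for testing (at least 3 samples with FPKM of 1 or above). Averaged over all samples, PSAP at 307 and CD63 at 232 FPKM were the highest, CTSD followed at 71.6 and CTSZ at 60.2, and 4 genes were under 2 FPKM. The gene that did not pass was CLN3, a lysosomal membrane protein mutated in Batten disease, with 1 to 35 reads per library and a mean of 0.0875 FPKM.

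After 2 weeks in NSG hosts 18 of the 40 genes were called, 8 higher and 10 lower (45%, where 56.1% of all tested genes were called). After 2 weeks in hHGF-NSG hosts 21 were called, 13 higher and 8 lower (52.5%, background 54.1%). The 6 week count in NSG hosts was 21, with 11 higher and 10 lower (52.5%, background 57.6%), and in hHGF-NSG hosts 21, with 15 higher and 6 lower (52.5%, background 51.3%). Groups did not overlap for 15 of the 40 genes in NSG and 22 in hHGF-NSG hosts at 2 weeks (background 48.2% and 55.8%), and for 16 and 22 at 6 weeks (background 47.6% and 57.2%). All these shares lie near or below the background. Median log2 changes of the 40 genes were -0.06, 0.06, 0.05 and 0.11 in these 4 comparisons, beside 0.03, 0.03, 0.03 and 0.02 over all genes.

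The split between higher and lower calls depended on scaling. Library sizes behind the deposited FPKM were 0.876 to 0.937 of the recovered read totals in naive libraries and 0.986 to 1.111 in treated ones. With plain read totals (limma voom on recovered reads), the median of all genes moved up by 0.28, 0.26, 0.25 and 0.2 in the 4 comparisons. Calls among the 40 genes were then 17 higher and 5 lower, 19 and 2, 19 and 6, and 20 and 4, where 58.6%, 57.1%, 59.2% and 52.6% of all genes were called. Over all genes the plain totals gave 40.6% higher and 18.1% lower, 38.7% and 18.4%, 39.1% and 20.2%, and 33.5% and 19.1%, where the deposited scaling gave 28.1% and 28%, 27.5% and 26.6%, 28.8% and 28.8%, and 25.9% and 25.5%. No gene of the 40 was called in opposite directions by the 2 scalings. Directions below are therefore relative to the deposited scaling, in which the median gene is near 0. Leaving out the library labelled NSG naive replicate 1 gave NSG counts of 15 at 2 weeks and 18 at 6 weeks. The NSG changes then were 1.66 and 1.79 for CTSS, 1.41 and 1.36 for CTSL, 1.16 and 1.52 for CTSH, 0.62 and 0.84 for CTSB, 0.66 and 1.25 for GABARAPL1, and -0.85 and -1.11 for GUSB, at 2 and 6 weeks. NAGLU moved most of the 40 genes in the NSG comparisons, by 0.19, to -1.03 and -1.22. Without hHGF-NSG naive replicate 2, the hHGF-NSG count at 2 weeks was 12, with 7 higher and 5 lower.

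TFEB and MITF were low in level, and each was called higher in NSG hosts with the deposited scaling. TFEB, which drives the expression of lysosomal genes, stood at 0.724, 0.718, 0.695 and 1.24 FPKM in the NSG naive libraries. At 2 weeks in NSG it was 1.21, 1.48, 1.21 and 1.32 FPKM, so the groups overlapped in 1 naive library. It was called higher at 2 weeks, by 0.33 (SE 0.12, adjusted p = 0.0267). The 6 week call was of similar size, 0.31 (SE 0.12, adjusted p = 0.0371). These calls ended when any of 4 libraries was left out at 2 weeks (NSG naive replicates 1, 2 and 3 and NSG 2 weeks replicate 2, adjusted p 0.0638 to 0.0726), and any of 5 at 6 weeks (NSG naive replicates 1, 2 and 3 and NSG 6 weeks replicates 2 and 3, adjusted p 0.0547 to 0.149). In hHGF-NSG hosts TFEB was not called, at 0.25 (SE 0.13) and 0.13 (SE 0.14), but with plain totals it was called higher there at 2 weeks (0.80, adjusted p = 0.00967). TFE3, a close relative, was at 7.26 FPKM on average and was called in none of the treatment comparisons, with changes between -0.24 and -0.04. MITF, the third member and the master regulator of melanocytes, was called higher after 6 weeks in NSG hosts, at 0.29 (SE 0.11, adjusted p = 0.0285). It was not called without NSG naive replicate 3 or 4 or NSG 6 weeks replicate 3 (adjusted p 0.0626 to 0.127).

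Of the 5 membrane proteins, CD63 fell in both hosts at 2 weeks, LAMP2 was called higher once, and 3 were called in no treatment comparison. CD63, a tetraspanin of late endosomes and of exosomes, was at 297, 368, 311 and 305 FPKM in NSG naive tumours and at 217, 191, 209 and 178 FPKM after 2 weeks. The NSG groups did not overlap at 2 weeks. Its 2 week change in NSG was -0.68 (SE 0.14, adjusted p = 0.000288). The hHGF-NSG change was smaller, -0.44 (SE 0.15, adjusted p = 0.0166). The second call ended when naive replicate 1, or 2 weeks replicate 2 or 3, of that host was left out (adjusted p 0.05 to 0.0871), and with plain totals (-0.20, adjusted p = 0.182). At 6 weeks CD63 was lower in NSG at -0.61 (SE 0.14, adjusted p = 0.00086) and not called in hHGF-NSG hosts at -0.24 (SE 0.16). LAMP2, which coats the inner face of the lysosomal membrane, was called higher after 6 weeks in NSG hosts (0.28, SE 0.11, adjusted p = 0.033). That call ended without NSG naive replicate 1, 3 or 4 or NSG 6 weeks replicate 3 or 4 (adjusted p 0.0532 to 0.111). LAMP1, the other major coat protein, MCOLN1, a calcium channel, and NPC1, a cholesterol exporter, were called in no treatment comparison. Their changes ranged from -0.25 for LAMP1 to 0.27 for MCOLN1. With plain totals, MCOLN1 was called higher in hHGF-NSG hosts at both times (0.51 and 0.53), and LAMP2 there at 6 weeks (0.33). Windows of MCOLN1 with CACGTG are printed above, whereas LAMP2 had no entry in the promoter search.

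Of the 8 proteases, 4 rose in both hosts at each time (50%, background 23% at 2 weeks and 20.8% at 6 weeks). With plain totals 6 were called higher in both hosts at 2 weeks and 7 at 6 weeks (background 34.1% and 28.3%). CTSS, CTSL, CTSH and CTSB were called higher than naive in both hosts at 2 weeks and at 6 weeks. CTSZ and TPP1 were not called higher with the deposited scaling. CTSS (chr1:150730196-150765957, minus strand, hg38), the protease of antigen processing, was at 17.8, 18.8, 14.5 and 16.9 FPKM in NSG naive tumours. After 2 weeks it was at 65.4, 55.1, 53.4 and 46.8 FPKM, and after 6 weeks at 54.3, 54.3, 76.1 and 58.6 FPKM. Every treated NSG library lay above every naive one. The hHGF-NSG tumours gave 19.2, 18 and 17.8 FPKM when naive, 61.4, 51, 43.1 and 55 FPKM at 2 weeks, and 56.9, 59.8 and 51.4 FPKM at 6 weeks, again with no overlap. The changes of CTSS were 1.64 (SE 0.12) and 1.46 (SE 0.13) at 2 weeks and 1.77 (SE 0.12) and 1.56 (SE 0.14) at 6 weeks, in NSG and hHGF-NSG hosts, with adjusted p from 1.64e-10 to 1.35e-08.

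CTSL (chr9:87725519-87731393, plus strand), a general lysosomal protease, went from a mean of 4.79 ± 0.402 FPKM (SD, n = 4) in NSG naive tumours to 14.3 ± 3.09 (n = 4) at 2 weeks and 13.7 ± 3.36 (n = 4) at 6 weeks. In hHGF-NSG hosts the means were 4.81 ± 0.328 (n = 3), 13.4 ± 0.928 (n = 4) and 13 ± 2.4 FPKM (n = 3). Its lowest treated library, at 10.4 FPKM, was above the highest naive one at 5.17. Its changes were 1.38 (SE 0.15), 1.31 (SE 0.16), 1.33 (SE 0.15) and 1.26 (SE 0.17), so the level at 6 weeks was close to that at 2 weeks. The difference between the times was not called (-0.06, SE 0.11, adjusted p = 0.75).

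CTSH (chr15:78921058-78949574, minus strand), an aminopeptidase that matures surfactant protein B in lung, stood at 2.54, 2.55, 2.98 and 3.02 FPKM in NSG naive tumours. It reached 7.84, 7.91, 7.49 and 7.18 FPKM at 2 weeks and 9.66, 10.2, 11.1 and 9.16 FPKM at 6 weeks. The 3 groups did not overlap. In hHGF-NSG hosts it was at 3.13, 2.52 and 3.07, then 7.72, 8.12, 7.22 and 7.86, then 12.1, 11.8 and 10.2 FPKM, with the same separation. The changes were 1.19 (SE 0.08) and 1.16 (SE 0.08) at 2 weeks and 1.55 (SE 0.08) and 1.66 (SE 0.09) at 6 weeks. From 2 to 6 weeks, averaged over the hosts, CTSH rose by 0.43 (SE 0.06, adjusted p = 1.04e-05).

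CTSB, the most abundant of these 4 after CTSS, was at 19.7 ± 1.99 FPKM (SD, n = 4) in NSG naive tumours, 31.2 ± 2.77 (n = 4) at 2 weeks and 36.7 ± 3.83 (n = 4) at 6 weeks. The hHGF-NSG means were 19.7 ± 0.576 (n = 3), 29.4 ± 4.18 (n = 4) and 38.6 ± 4.57 FPKM (n = 3). Changes were 0.64 (SE 0.11), 0.55 (SE 0.12), 0.87 (SE 0.11) and 0.93 (SE 0.12), and the step from 2 to 6 weeks was 0.30 (SE 0.08, adjusted p = 0.00816). Among genes higher in both hosts, those at or above a 2-fold change in both were CTSL, CTSS and CTSH at 2 weeks (7.5% of the 40, background 7.33%). At 6 weeks GABARAPL1 joined them (10%, background 5.74%). No gene of the 40 was lower in both hosts by that much (background 5.73% at 2 weeks and 5.9% at 6 weeks).

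The aspartic protease CTSD and the carboxypeptidase CTSA, which also protects other hydrolases in a complex, were called higher in hHGF-NSG hosts. CTSD gave 57.9, 40.1 and 61.7 FPKM in hHGF-NSG naive tumours, 71, 71.5, 67.9 and 83.7 FPKM at 2 weeks, and 107, 96.2 and 83.6 FPKM at 6 weeks. The groups did not overlap with the naive one, and the 2 week change was 0.48 (SE 0.16, adjusted p = 0.015). At 6 weeks it was 0.85 (SE 0.17, adjusted p = 0.000282). Without hHGF-NSG naive replicate 2 the change at 2 weeks was 0.29 (adjusted p = 0.145). In NSG hosts the values for CTSD were 0.30 (SE 0.15) and 0.22 (SE 0.15), which did not pass. For CTSA the hHGF-NSG changes were 0.46 (SE 0.13) and 0.55 (SE 0.14), with adjusted p of 0.00466 and 0.00204. The NSG values of CTSA, 0.14 (SE 0.12) and 0.22 (SE 0.12), did not pass. With plain totals both genes were called higher in all 4 comparisons. Exons of CTSD and CTSA share 52.7% and 28.5% of their bases with other annotated genes, and the strand setting of the counting was not given in the sources used here, so reads of these neighbours cannot be told apart from theirs. CTSZ was called lower once, after 6 weeks in NSG hosts (-0.40, SE 0.17, adjusted p = 0.0468). That call ended when any of 12 of the 22 libraries was left out (adjusted p 0.0514 to 0.137), namely replicates 3 and 4 of NSG naive, 3 of NSG 2 weeks, 1, 2 and 4 of NSG 6 weeks, 1 of hHGF-NSG naive, 1, 2 and 4 of hHGF-NSG 2 weeks, and 1 and 2 of hHGF-NSG 6 weeks. TPP1, a tripeptidyl peptidase, was called in no treatment comparison with the deposited scaling, at -0.17 to 0.34, and with plain totals was called higher in both hosts at 6 weeks (0.51 and 0.59) and in hHGF-NSG hosts at 2 weeks (0.48). TPP1 at 6 weeks in NSG hosts, 7.56, 7.41, 7.46 and 7.17 FPKM, lay above its naive values of 5.5, 6.58, 6.04 and 6.26 FPKM, whereas its groups overlapped in hHGF-NSG hosts.

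**Figure D1:**
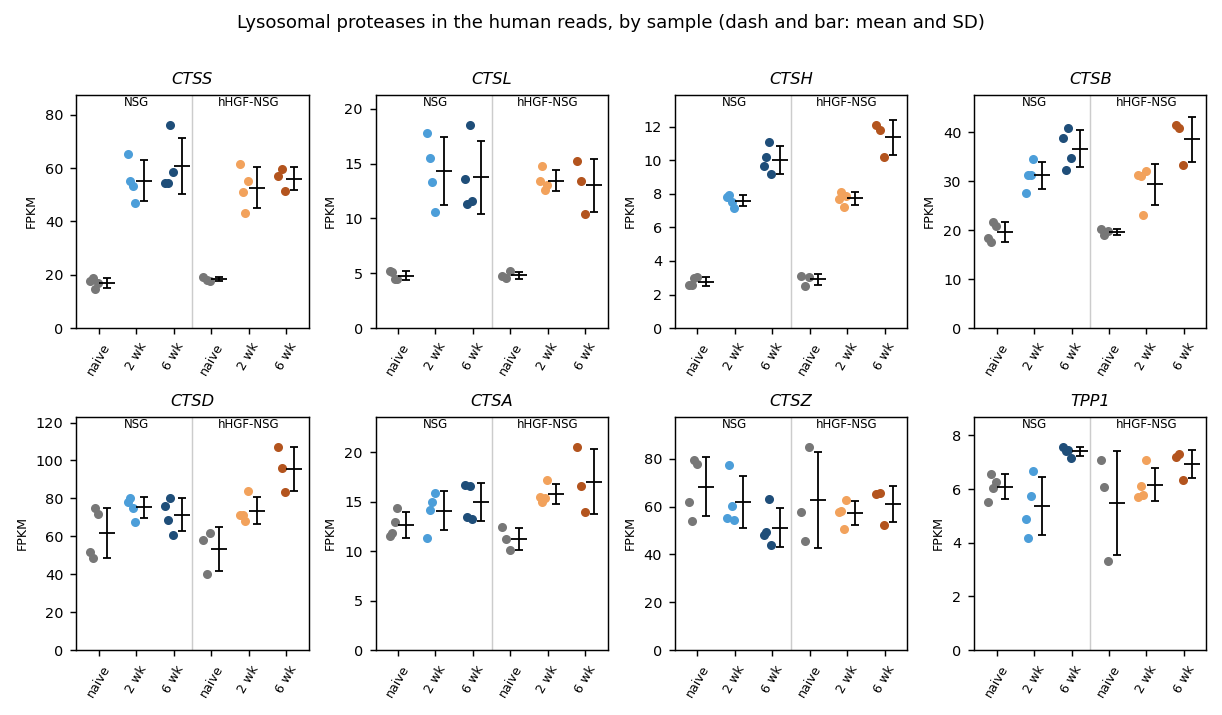
FPKM of 8 lysosomal proteases (vertical axes, linear from 0) in the 22 samples by host and treatment (horizontal axis). Points are samples, and the dash and bar give the mean and SD. CTSS, CTSL, CTSH and CTSB lie higher in treated than in naive tumours of both hosts, whereas the groups of CTSZ overlap.

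The hydrolases of sugars and sulfates moved in both directions. GUSB and NAGLU fell in both hosts at 2 weeks, GUSB and GLA fell in both at 6 weeks, and HEXA rose in both at 6 weeks. GUSB (chr7:65960684-65982314, minus strand), the beta-glucuronidase that is often used as a reference gene in quantitative PCR, was at 37.2, 42.9, 43.4 and 44.2 FPKM in NSG naive tumours. It was at 23.7, 25.3, 23.1 and 22.9 FPKM at 2 weeks and 19.7, 17.9, 22.8 and 18.3 FPKM at 6 weeks. In hHGF-NSG hosts GUSB was at 35.1, 35.9 and 34.5, then 21.7, 20.5, 18.8 and 24.4, then 22.6, 22.5 and 20.6 FPKM. No treated library reached a naive one in either host. The changes were -0.79 (SE 0.09), -0.70 (SE 0.09), -1.06 (SE 0.09) and -0.66 (SE 0.10), with adjusted p from 1.64e-09 to 1.12e-05. GUSB was also called lower in the 4 comparisons with plain totals, at -0.54, -0.48, -0.87 and -0.50.

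NAGLU, which with SGSH degrades heparan sulfate, was at 10.7 ± 3.42 FPKM (SD, n = 4) in NSG naive tumours and at 5.35 ± 0.784 (n = 4) and 4.57 ± 0.34 (n = 4) after 2 and 6 weeks. In hHGF-NSG hosts the means were 8.19 ± 0.31 (n = 3), 4.63 ± 0.738 (n = 4) and 5.84 ± 0.382 FPKM (n = 3). The changes were -0.84 (SE 0.15), -0.72 (SE 0.17), -1.03 (SE 0.15) and -0.43 (SE 0.18), and the last did not pass (adjusted p = 0.0518). SGSH, the sulfamidase of the same chain, gave 10.8, 11.8 and 15 FPKM in hHGF-NSG naive tumours and 23.1, 22 and 18 FPKM at 6 weeks, without overlap. Its change there was 0.71 (SE 0.14, adjusted p = 0.000191), beside -0.09 (SE 0.12) in NSG hosts. At 2 weeks SGSH was called in hHGF-NSG hosts at 0.32 (SE 0.13, adjusted p = 0.0375), and that call ended without any of 5 hHGF-NSG libraries (naive replicates 1 and 2 and 2 weeks replicates 2, 3 and 4, adjusted p 0.0503 to 0.185).

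GLA, the alpha-galactosidase that is deficient in Fabry disease, was at 14.3, 15.4, 13.5 and 13.7 FPKM in NSG naive tumours and 7.77, 8.62, 10.1 and 7.3 FPKM at 6 weeks. Its 6 week changes were -0.69 (SE 0.11, adjusted p = 2.52e-05) and -0.53 (SE 0.13, adjusted p = 0.00195), and it fell by 0.39 (SE 0.08, adjusted p = 0.00156) from 2 to 6 weeks. The NSG change at 2 weeks was smaller, at -0.30 (SE 0.11, adjusted p = 0.0276), and it was not called without NSG naive replicate 2 or NSG 2 weeks replicate 2 or 4 (adjusted p 0.0564 to 0.0973) or with plain totals (-0.06). GLB1, the beta-galactosidase, was called lower in NSG hosts at -0.33 (SE 0.10) and -0.43 (SE 0.10), with adjusted p of 0.0119 and 0.00151. With plain totals it was not called, at -0.09 and -0.26. HEXA, a subunit of beta-hexosaminidase, rose at 6 weeks by 0.32 (SE 0.09) and 0.44 (SE 0.11), with adjusted p of 0.00619 and 0.00173, from 2.46 to 3.3 FPKM in NSG and from 1.98 to 3.05 FPKM in hHGF-NSG hosts. At 2 weeks HEXA was called in hHGF-NSG hosts (0.32, SE 0.10, adjusted p = 0.0101), which without hHGF-NSG naive replicate 2 became 0.26 (adjusted p = 0.0637). NEU1, the lysosomal sialidase, was called higher in hHGF-NSG hosts at 0.27 (SE 0.10) and 0.35 (SE 0.11), with adjusted p of 0.0332 and 0.0143. Leaving out 1 of 5 libraries at 2 weeks (2 weeks replicates 1, 2 and 4 and naive replicates 1 and 2 of that host) or 1 of 3 at 6 weeks (6 weeks replicates 1 and 2 and naive replicate 2) ended the NEU1 calls, with adjusted p up to 0.114. With plain totals NEU1 was also called higher in NSG hosts (0.34 and 0.35), and HEXA and SGSH were called higher there at 2 weeks (0.50 and 0.42).

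**Figure D2:**
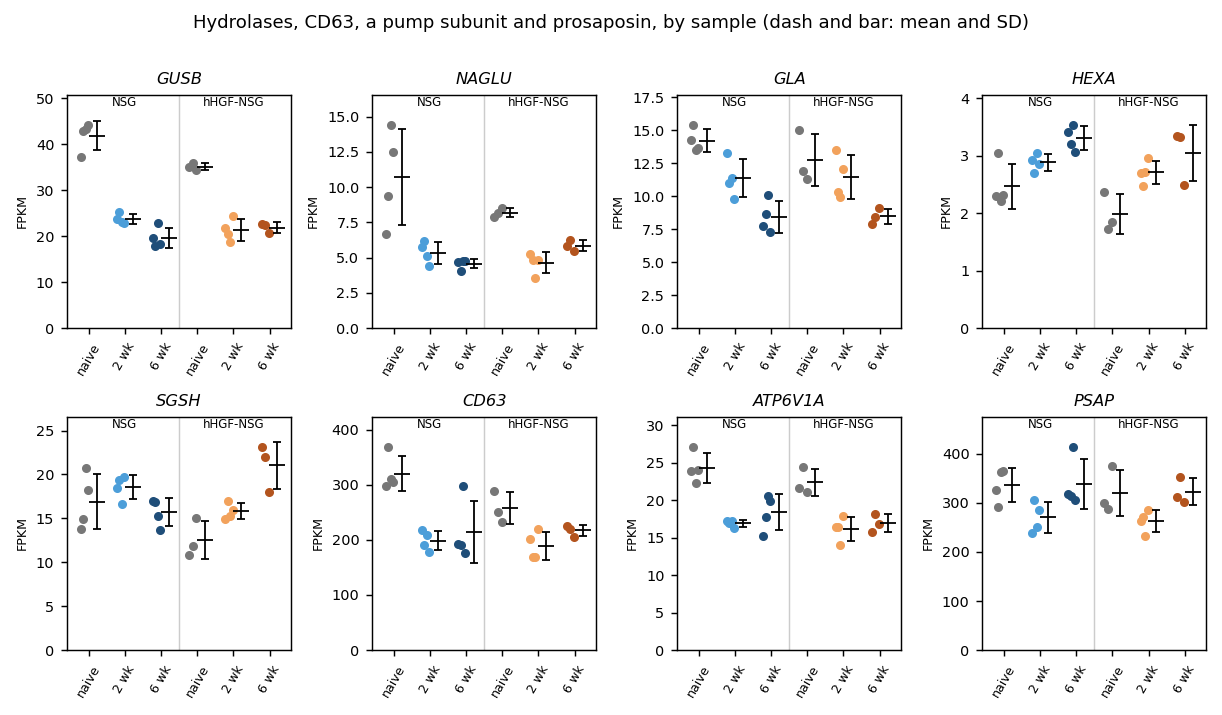
FPKM (vertical axes, linear from 0) of 5 hydrolases of sugars and sulfates, the tetraspanin CD63, the pump subunit ATP6V1A and prosaposin by sample (points), host and treatment (horizontal axis), with the mean and SD as dash and bar. GUSB and ATP6V1A lie lower in treated tumours of both hosts, and HEXA lies higher at 6 weeks.

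Of the lipid-binding proteins, PSAP, the precursor of the saposins, was the highest of the set. It was at 325, 292, 363 and 365 FPKM in NSG naive tumours and at 238, 306, 251 and 286 FPKM at 2 weeks, which overlapped. Its NSG change at 2 weeks was -0.31 (SE 0.12, adjusted p = 0.0311). That call ended without NSG naive replicate 3 or 4 or NSG 2 weeks replicate 1 or 3 (adjusted p 0.0803 to 0.0972) and with plain totals (-0.04). At 6 weeks PSAP changed by 0.00 (SE 0.12) in NSG and 0.01 (SE 0.14) in hHGF-NSG hosts. Between 2 and 6 weeks it rose by 0.31 (SE 0.09, adjusted p = 0.0156), and without hHGF-NSG 6 weeks replicate 2 that became 0.27 (adjusted p = 0.0513). NPC2, which hands cholesterol to NPC1, rose by 0.37 (SE 0.09, adjusted p = 0.00493) over the same interval. Against naive it was called in hHGF-NSG hosts at 6 weeks (0.45, SE 0.14, adjusted p = 0.0118), and without hHGF-NSG naive replicate 3 it was not (0.35, adjusted p = 0.0704). With plain totals NPC2 was also called higher in NSG hosts at 6 weeks (0.34).

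The 4 proton pump genes did not move together. ATP6V1A (chr3:113747019-113812056, plus strand), the catalytic subunit that hydrolyses ATP, fell in both hosts at both times. It was at 23.9, 27.1, 22.3 and 24.1 FPKM in NSG naive tumours and 17.2, 17, 17.3 and 16.3 FPKM at 2 weeks, with no overlap. In hHGF-NSG hosts its values were 21.7, 24.4 and 21.1 FPKM when naive and 16.4, 16.5, 14 and 17.9 FPKM at 2 weeks. The changes of ATP6V1A were -0.49 (SE 0.09), -0.45 (SE 0.10), -0.39 (SE 0.09) and -0.38 (SE 0.11), with adjusted p from 0.000117 to 0.00482. With plain totals it was called lower only in NSG at 2 weeks (-0.25, adjusted p = 0.0289), and the other 3 were -0.22, -0.18 and -0.22. ATP6AP1, an accessory subunit needed for pump assembly, was called higher in hHGF-NSG hosts, at 0.51 (SE 0.12, adjusted p = 0.000814) and 0.44 (SE 0.12, adjusted p = 0.00506). Its naive values there were 29.6, 26 and 27.2 FPKM and its 2 week values 37.1, 39.2, 39.9 and 43.1 FPKM. In NSG hosts it was not called (0.17, SE 0.11, and 0.15, SE 0.11), but with plain totals it was called higher there too (0.45 and 0.39). ATP6V0D1, of the membrane sector, and ATP6V1H, a regulatory subunit, were called in no treatment comparison, with changes of -0.08 to 0.14. With plain totals ATP6V0D1 was called higher in NSG at 2 weeks (0.25) and in hHGF-NSG hosts at both times (0.41 and 0.29).

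Among genes of autophagosome initiation, ATG9A fell in both hosts at both times and ULK1 fell in both at 6 weeks. ATG9A, the membrane protein of the vesicles that seed autophagosomes, was at 8.93, 8.69, 9.69 and 10.6 FPKM in NSG naive tumours, 3.52, 5.98, 4.34 and 7.31 FPKM at 2 weeks and 5.97, 5.43, 4.29 and 4.93 FPKM at 6 weeks. All treated NSG values lay below all naive ones. Its changes were -0.77 (SE 0.15), -0.45 (SE 0.16), -0.77 (SE 0.15) and -0.74 (SE 0.17). The hHGF-NSG call at 2 weeks (adjusted p = 0.0256) ended without 2 weeks replicate 1 or 3 or naive replicate 2 or 3 of that host (adjusted p 0.0536 to 0.0947) and with plain totals (-0.27, adjusted p = 0.211). Exons of ATG9A share 38.8% of their bases with an annotated neighbour on the same strand, so its level is uncertain. Smaller shares, counted over both strands, apply to SQSTM1 (22%), ATG7 (18.1%), BECN1 (17.1%), HEXA (16.3%), TPP1 (14.4%), NAGLU (12.6%) and GLB1 (10%). The same caution holds for these genes.

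ULK1, the kinase that mTORC1 inhibits, was at 27.6, 16.1, 30.1 and 35 FPKM in NSG naive tumours and 20.7, 20.6, 13.7 and 19.2 FPKM at 6 weeks. Naive replicate 2 lay among the treated values. The 6 week changes were -0.49 (SE 0.18, adjusted p = 0.0231) and -0.51 (SE 0.21, adjusted p = 0.0436). Neither call held when 1 of 4 libraries was left out (NSG naive replicate 1, 3 or 4 or NSG 6 weeks replicate 3, adjusted p 0.0505 to 0.102, and any 6 weeks library or naive replicate 3 in hHGF-NSG hosts, adjusted p 0.0626 to 0.201), or with plain totals (-0.29 and -0.35). The 2 week change in hHGF-NSG hosts was -0.62 (SE 0.19, adjusted p = 0.00969), and without hHGF-NSG naive replicate 3 it was -0.46 (adjusted p = 0.0728). BECN1, a subunit of the lipid kinase complex, was called higher after 2 weeks in NSG hosts (0.23, SE 0.09, adjusted p = 0.0302). It was not called without NSG naive replicate 1, 3 or 4 or NSG 2 weeks replicate 1 or 3 (adjusted p 0.0531 to 0.0641). UVRAG, which joins the same complex, was called lower there (-0.22, SE 0.07, adjusted p = 0.0115), and not without NSG 2 weeks replicate 3 (-0.18, adjusted p = 0.0514) or with plain totals. WIPI1, a reader of the lipid that this kinase makes, was called higher in hHGF-NSG at 6 weeks (0.64, SE 0.17, adjusted p = 0.00403). Its values there were 4.3, 4.01 and 3.76 FPKM when naive and 6.08, 7.25 and 7.25 FPKM at 6 weeks, without overlap. Exons of WIPI1 share 28.1% of their bases with other annotated genes on the opposite strand, so its level is uncertain in the same way. With plain totals WIPI1 was also called in hHGF-NSG at 2 weeks (0.49), and BECN1 was called higher in hHGF-NSG at 2 weeks (0.48) and in NSG at 6 weeks (0.30).

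In the conjugation system, which attaches ATG8 proteins to the growing membrane, GABARAPL1 and GABARAPL2 rose in both hosts at both times, MAP1LC3B rose in both at 6 weeks, and the enzyme gene ATG7 fell. GABARAP, an ATG8 gene outside the 41, was called in none of the 4 treatment comparisons, at -0.09, 0.42, -0.05 and 0.31. GABARAPL1 (chr12:10212458-10223130, plus strand), an ATG8 protein, was at 5.87, 6.88, 5.09 and 6.05 FPKM in NSG naive tumours. It was at 11, 9.34, 9.81 and 10.1 FPKM at 2 weeks and 15.5, 14.5, 18.2 and 14.1 FPKM at 6 weeks, so the 3 groups did not overlap. The hHGF-NSG values were 6.97, 6.11 and 5.84, then 9.46, 9.48, 9 and 8.59, then 13.5, 15.9 and 15.4 FPKM, separated in the same way. Its changes were 0.67 (SE 0.09) and 0.47 (SE 0.10) at 2 weeks and 1.25 (SE 0.09) and 1.12 (SE 0.10) at 6 weeks, with adjusted p from 2.73e-10 to 0.000334. The step from 2 to 6 weeks, 0.61 (SE 0.07, adjusted p = 6.09e-07), was the largest of the 40 genes in that comparison.

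GABARAPL2, a second ATG8 protein, went from 11.1 ± 0.951 FPKM (SD, n = 4) in NSG naive tumours to 17.3 ± 3.31 (n = 4) and 19.5 ± 4.97 FPKM (n = 4), and from 11.6 ± 1.62 (n = 3) to 16.3 ± 1.04 (n = 4) and 17.6 ± 0.671 FPKM (n = 3) in hHGF-NSG hosts. The changes were 0.58 (SE 0.14), 0.47 (SE 0.15), 0.74 (SE 0.14) and 0.57 (SE 0.16). Without hHGF-NSG naive replicate 2, the second of these was 0.36 (adjusted p = 0.0752). MAP1LC3B, the LC3 protein used as an autophagosome marker, was at 5.94, 5.51, 5.62 and 5.6 FPKM in NSG naive tumours, 6.16, 5.71, 6.27 and 6.85 FPKM at 2 weeks and 8.08, 8.08, 9.56 and 8.81 FPKM at 6 weeks. Of these, the 6 week values were clear of the naive ones. Its 6 week changes were 0.53 (SE 0.08, adjusted p = 1.15e-05) and 0.56 (SE 0.09, adjusted p = 3.56e-05). At 2 weeks it was not called in NSG (0.12, SE 0.08) and was called in hHGF-NSG hosts (0.22, SE 0.09, adjusted p = 0.0411), a call that ended without any 1 of the 4 libraries of 2 weeks or naive replicate 2 or 3 of that host (adjusted p 0.0622 to 0.259). With plain totals MAP1LC3B was called higher in NSG at 2 weeks as well (0.42). The near-identical copies MAP1LC3B2 and GABARAPL3 had mean levels of 0.047 and 0 FPKM.

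ATG7, the enzyme that activates ATG8 and ATG12 proteins, was at 1.81, 1.51, 1.81 and 1.73 FPKM in NSG naive tumours and 1.17, 1.13, 0.814 and 0.825 FPKM at 6 weeks. In hHGF-NSG hosts it was at 1.69, 1.92 and 1.68 FPKM when naive and 0.796, 1.01 and 1.18 FPKM at 6 weeks. Neither pair of groups overlapped, and the changes were -0.46 (SE 0.10, adjusted p = 0.000476) and -0.47 (SE 0.11, adjusted p = 0.00156). The 2 week changes of ATG7, -0.28 (SE 0.10, adjusted p = 0.0213) and -0.29 (SE 0.11, adjusted p = 0.0246), were not called without NSG naive replicate 1 or 3 or NSG 2 weeks replicate 1 or 3 (adjusted p 0.051 to 0.0609), or, in hHGF-NSG hosts, without 2 weeks replicate 2 or 3 or naive replicate 2 (adjusted p 0.0553 to 0.0973), or with plain totals. ATG5, part of the enzyme that attaches ATG8 proteins to lipid, was called lower once, in hHGF-NSG at 2 weeks (-0.30, SE 0.12, adjusted p = 0.0458), which ended without any of 9 libraries (adjusted p 0.0506 to 0.199), namely replicates 4 of NSG naive, 2 of NSG 2 weeks, 1 and 2 of hHGF-NSG naive, 1, 2 and 3 of hHGF-NSG 2 weeks, and 2 and 3 of hHGF-NSG 6 weeks. With plain totals ATG5 was called higher in NSG at 6 weeks (0.44). SQSTM1, the cargo receptor p62, was called in no treatment comparison with the deposited scaling, and with plain totals it was called higher in NSG at 2 weeks (0.42) and in hHGF-NSG at 6 weeks (0.51). It was at 21.7, 20.8, 29.4 and 29 FPKM in NSG naive tumours and 29.2, 27.1, 28 and 21.9 FPKM at 6 weeks, with changes of 0.08 to 0.31 over the 4 comparisons.

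**Figure D3:**
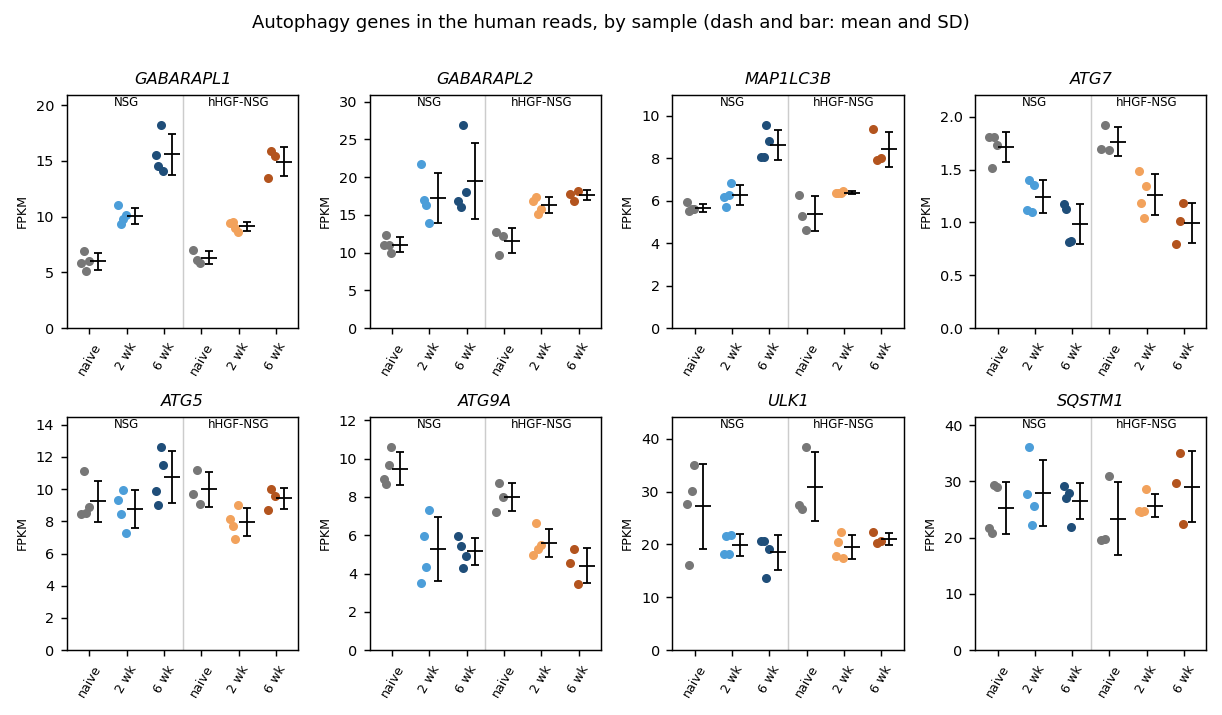
FPKM (vertical axes, linear from 0) of 8 autophagy genes by sample (points), host and treatment (horizontal axis), with the mean and SD as dash and bar. GABARAPL1 lies higher at 2 weeks and higher again at 6 weeks in both hosts, MAP1LC3B is clear of its naive values at 6 weeks, ATG7 lies lower at 6 weeks, and SQSTM1 overlaps.

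Both hosts agreed in direction for 6 genes called higher (15%, background 23%) and 6 called lower (15%, background 23.2%) at 2 weeks. The higher ones were CTSB, CTSL, CTSS, CTSH, GABARAPL1 and GABARAPL2, and the lower ones CD63, GUSB, NAGLU, ATP6V1A, ATG9A and ATG7. At 6 weeks 8 were higher in both (20%, background 20.8%), with HEXA and MAP1LC3B added, and 6 were lower (15%, background 21.9%), namely GLA, GUSB, ATP6V1A, ULK1, ATG9A and ATG7. With plain totals 16 were higher and 2 lower in both hosts at 2 weeks (background 34.1% and 15.6%), and 15 and 4 at 6 weeks (background 28.3% and 15.6%). Leaving out NSG naive replicate 1 gave 6 higher and 5 lower at 2 weeks, ATG7 being lost, and 8 and 6 at 6 weeks, with NAGLU in place of ULK1, and the genes past 2-fold in both hosts were the same. The 2 week and 6 week comparisons of a host share their naive samples.

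Comparing 6 with 2 weeks directly, averaged over the hosts, called 11 of the 40 genes, 9 higher and 2 lower (27.5%, background 23.1%, of which 9.87% higher and 13.3% lower). Beside the steps of GABARAPL1, CTSH, CTSB, NPC2 and PSAP given above, MAP1LC3B rose by 0.38 (SE 0.06, adjusted p = 6.22e-05), LAMP2 by 0.29 (SE 0.08, adjusted p = 0.0104), MITF by 0.27 (SE 0.08, adjusted p = 0.0185) and ATG5 by 0.24 (SE 0.08, adjusted p = 0.0371). GLA and BECN1 fell, the latter by 0.19 (SE 0.07, adjusted p = 0.0353). The ATG5 call ended without any of 9 libraries (adjusted p 0.0501 to 0.0902), namely replicates 2 and 4 of NSG 2 weeks, 3 and 4 of NSG 6 weeks, 1, 2 and 3 of hHGF-NSG 2 weeks, and 2 and 3 of hHGF-NSG 6 weeks. The BECN1 call ended without any of 8 (adjusted p 0.0531 to 0.132), namely replicates 1 and 3 of NSG 2 weeks, 2 and 4 of NSG 6 weeks, 1, 2 and 4 of hHGF-NSG 2 weeks, and 3 of hHGF-NSG 6 weeks. With plain totals 8 were higher and 5 lower (24.4% of all genes, 7.2% higher and 17.2% lower).

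**Figure D4:**
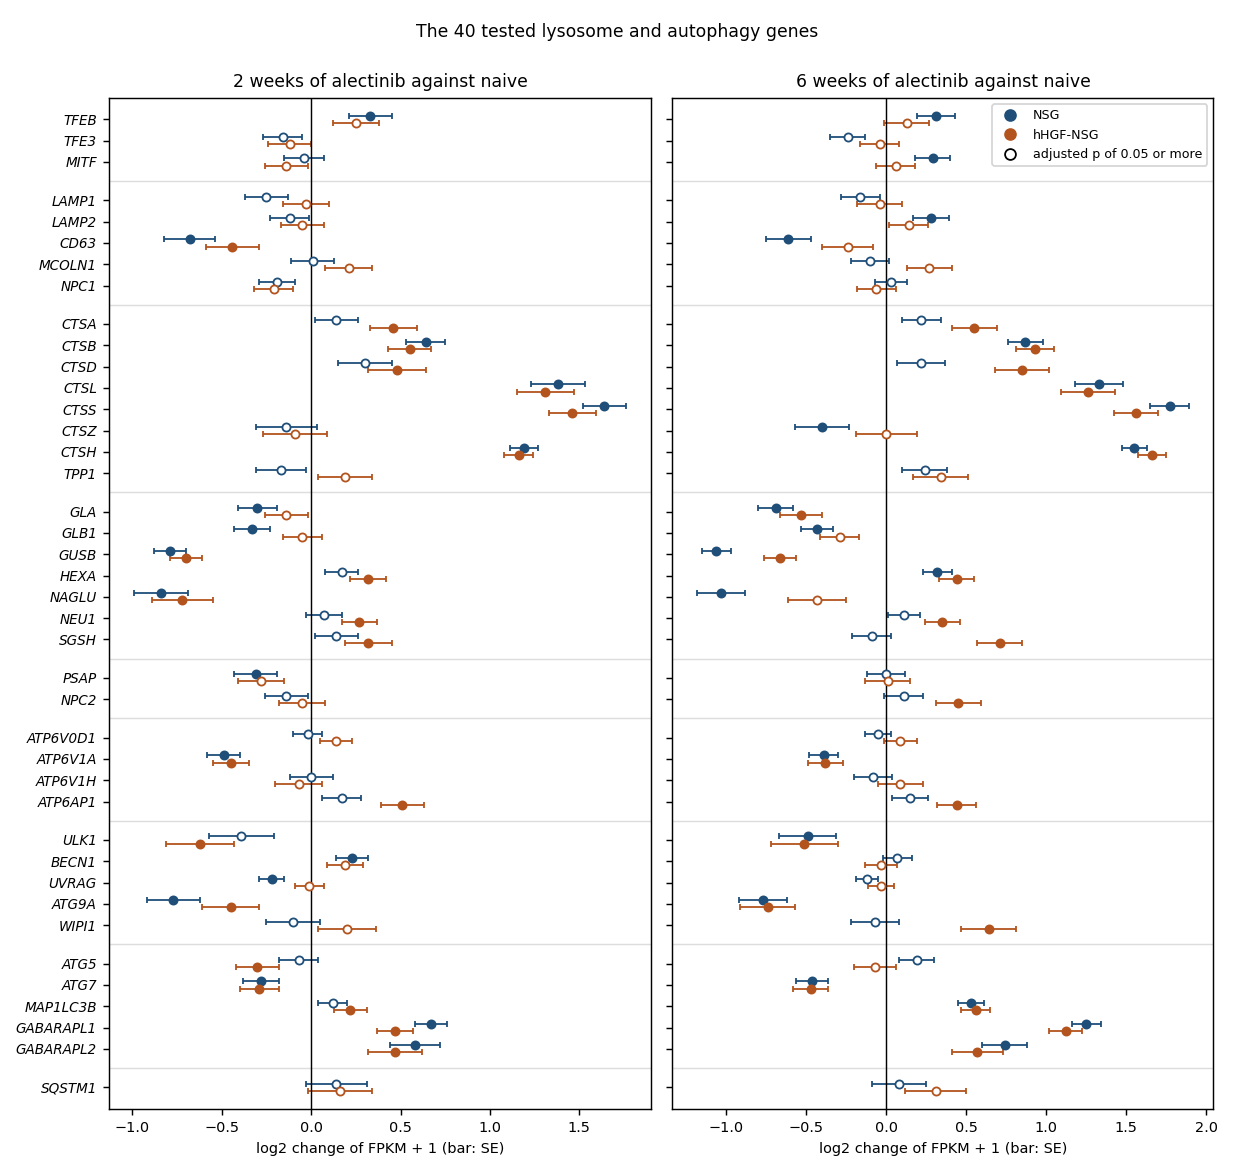
Log2 change of FPKM + 1 against naive (horizontal axes) for the 40 tested genes, grouped from top to bottom as regulators, membrane proteins, proteases, hydrolases of sugars and sulfates, lipid-binding proteins, proton pump, initiation, conjugation and receptor. Points are limma estimates in NSG and hHGF-NSG hosts, bars are SE, and open points were not called. Changes run from -1.06 for GUSB to 1.77 for CTSS, both in NSG hosts at 6 weeks.

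Between the hosts none of the 40 genes was called by limma, in naive tumours (0 of 40, background 0.0187%), at 2 weeks (0, background 0%) or at 6 weeks (0, background 0%). Unadjusted p was under 0.05 for 5, 0 and 3 genes (background 8.9%, 4.25% and 12.1%), and limma voom also called 0 each time (background 0.00624%, 0% and 0%), with 5, 0 and 5 at an unadjusted p under 0.05 (background 9.39%, 4.29% and 12.3%). The F-test of whether the response to alectinib differed between hosts called 0 of 40 (background 0%), with 5 genes at an unadjusted p under 0.05 (background 10.2%). SGSH had the smallest adjusted p of these (0.281 by limma's F-test), and its 6 week response was 0.80 (SE 0.18) larger in hHGF-NSG hosts. WIPI1 and CTSD followed it in size among the 6 week response differences, at 0.72 (SE 0.23, adjusted p = 0.235) and 0.63 (SE 0.22, adjusted p = 0.257). Those p-values come from limma's moderated test of the 6 week difference alone, so they cannot be ranked against the F-test value of SGSH. Genes called in 1 host and not in the other, such as CTSD, CTSA, ATP6AP1 and SGSH, are therefore not shown to differ between the hosts.

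The rest of the pathway was read from 7 further lists, whose shares at 6 weeks are each read against the background of 20.8% higher and 21.9% lower in both hosts. The lists were chosen with earlier results of these data known, so their shares are a description and not a test of enrichment. Of 31 other hydrolases tested, 14 were higher and 5 lower in both hosts at 6 weeks (45.2% and 16.1%, background 20.8% and 21.9%). CTSF, a cysteine protease, went from 1.1 to 14.4 FPKM in NSG hosts and from 0.916 to 14.4 in hHGF-NSG hosts (log2 changes 2.88, SE 0.13, and 3.03, SE 0.15), and CTSO rose by 1.26 (SE 0.12) and 1.24 (SE 0.13). CTSC, which activates serine proteases of granules, fell from 14.3 to 4.88 and from 11.8 to 4.77 FPKM (-1.38, SE 0.11, and -1.15, SE 0.13). These 3 genes kept their calls with plain totals.

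Among 17 other proton pump subunits 1 was higher and 2 lower in both hosts at 6 weeks (5.88% and 11.8%, below the background). ATP6V1C2, an isoform of the C subunit, went from 1.86 to 10.5 FPKM and from 2.26 to 10.6 FPKM (2.00, SE 0.14, and 1.83, SE 0.16). ATP6V0E2 (-0.55, SE 0.10, and -0.40, SE 0.12) and ATP6V1B2 (-0.25, SE 0.08, and -0.59, SE 0.10) fell, although with plain totals neither was called in both hosts. Of 20 genes of membrane transport and enzyme sorting, 7 were higher and 5 lower (35% and 25%). GNPTG, a subunit of the enzyme that makes the mannose 6-phosphate tag, rose by 0.77 (SE 0.12) and 1.06 (SE 0.14). MFSD8, a lysosomal membrane protein, rose by 0.97 (SE 0.11) and 0.71 (SE 0.13). LAPTM4B fell by 0.92 (SE 0.13) and by 1.07 (SE 0.15), from over 100 FPKM in naive tumours of both hosts. IGF2R, a receptor for the mannose 6-phosphate tag, fell by 0.55 (SE 0.17) and by 0.93 (SE 0.20), and with plain totals it was not called in NSG hosts (-0.37, adjusted p = 0.0868).

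For mTORC1 at the lysosome, 2 of 18 genes were higher and 4 lower in both hosts at 6 weeks (11.1% and 22.2%, at or below the background). TSC1, which restrains mTORC1, rose by 0.72 (SE 0.15) and 0.55 (SE 0.17), and RRAGB, a Rag GTPase, by 0.58 (SE 0.13) and 0.48 (SE 0.16). RRAGD, a Rag GTPase known as a TFEB target, went from 6.66 to 2.4 and from 5.86 to 2.2 FPKM (-1.15, SE 0.12, and -1.10, SE 0.14), and RHEB, the activator of mTORC1, fell by 0.53 (SE 0.09) and 0.53 (SE 0.11). Those 4 kept their calls with plain totals.

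Core autophagy genes outside the 41 were called higher in both hosts at 6 weeks in 14 of 28 and lower in 4 (50% and 14.3%, background 20.8% and 21.9%). MAP1LC3A, another LC3 gene, went from 0.109 to 1.26 and from 0.126 to 1.29 FPKM (0.99, SE 0.18, and 1.01, SE 0.21). ATG2A, a lipid transfer protein, rose by 0.99 (SE 0.20) and 1.27 (SE 0.23). WDR45B and VMP1 fell, WDR45B from 91.6 to 47.1 FPKM in NSG and from 87.9 to 45.5 FPKM in hHGF-NSG hosts, and VMP1 by 0.89 (SE 0.13) and by 1.47 (SE 0.16). Of 14 selective receptors 6 were higher and 2 lower (42.9% and 14.3%). RETREG1, a receptor for the endoplasmic reticulum, rose by 0.83 (SE 0.14) and 0.82 (SE 0.16), and TAX1BP1 by 0.74 (SE 0.09) and 0.69 (SE 0.10). BNIP3L, a receptor for mitochondria, went from 45.3 to 22.8 and from 41.5 to 20.8 FPKM (-0.95, SE 0.12, and -0.95, SE 0.14). NCOA4, the ferritin receptor, changed by -0.42 (SE 0.11) and -0.47 (SE 0.13), and with plain totals the NSG value was not called (-0.19, adjusted p = 0.118). Among 11 genes of fusion with the lysosome 3 were higher and 0 lower (27.3% and 0%). VAMP8, a SNARE of that fusion, went from 71.9 to 175 and from 72.7 to 168 FPKM, and PLEKHM1, an adaptor, rose by 0.90 (SE 0.11) and 1.13 (SE 0.13). With plain totals the 6 week counts in both hosts were 17 higher and 3 lower for hydrolases, 5 and 0 for the pump, 8 and 2 for transport and sorting, 5 and 3 for mTORC1, 14 and 2 for core autophagy, 6 and 1 for receptors and 6 and 0 for fusion, where the background is 28.3% higher and 15.6% lower.

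**Figure D5:**
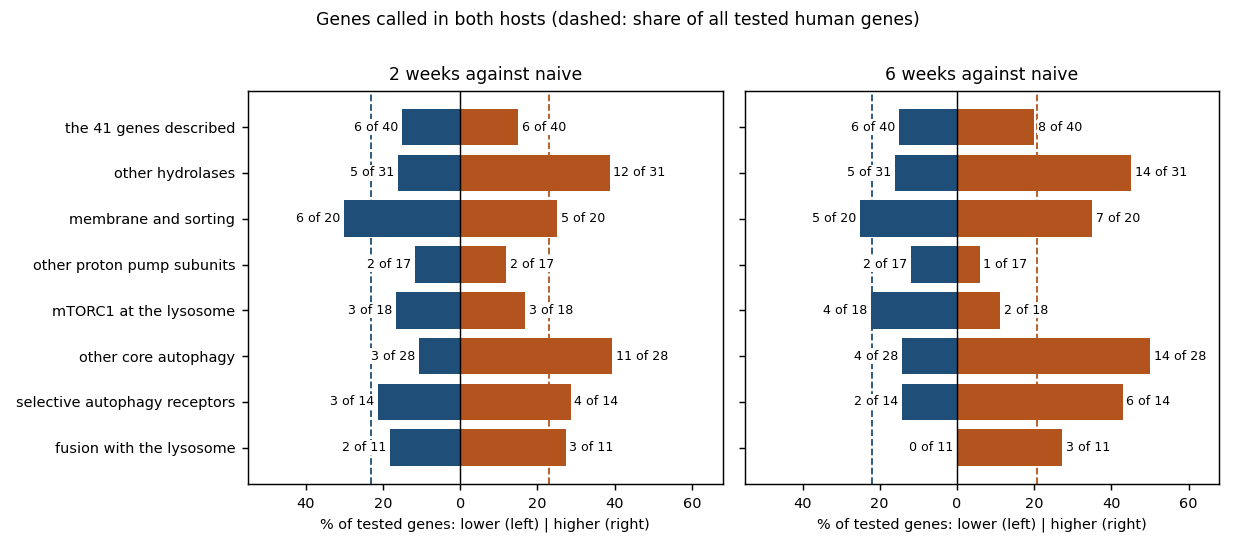
Share of tested genes (horizontal axes, percent) called higher (right) or lower (left) in both hosts, for the 41 genes described and 7 further lists (vertical axis). Dashed lines give the share of all tested human genes. The lists were chosen with earlier results of these data known. At 6 weeks the bars of other hydrolases and of other core autophagy genes reach 45.2% and 50% on the higher side, where the background is 20.8%.

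Host cells express the same genes, and their levels in the mouse table of the same tumours are given as a description. Mouse reads made up 42.9% of all reads of the CTSS pair, 78.4% for CTSB, 80.9% for CTSL, 51.9% for CTSH and 33.2% for GABARAPL1. Mouse Ctss was at 595 ± 15 FPKM (SD, n = 3) in NSG naive tumours, 617 ± 56.4 (n = 4) at 2 weeks and 709 ± 140 (n = 3) at 6 weeks. Mouse Ctsl was at 117 ± 1.61 (n = 3), 81 ± 3.84 (n = 4) and 111 ± 20 FPKM (n = 3). These FPKM are relative to mouse reads alone, and did not show the step between naive and 2 weeks seen in the human genes. The mouse share of all reads was 5.5 to 12% in NSG naive libraries and 12.1 to 20.2% at 2 weeks. Levels relative to mouse reads therefore cannot show how Ctss and Ctsl reads changed among all reads. Mouse Gabarapl1 was at 35.3 ± 6.75 (n = 3), 49.2 ± 5.77 (n = 4) and 71.4 ± 12.8 FPKM (n = 3) in NSG hosts and at 35.8 ± 5.88 (n = 3), 49.5 ± 5.67 (n = 4) and 71.9 ± 5.97 FPKM (n = 3) in hHGF-NSG hosts, in the same order as the human gene. Mouse Gusb was at 69.6 ± 5.26 (n = 3), 46.3 ± 9.09 (n = 4) and 41.4 ± 3.38 FPKM (n = 3) in NSG hosts, again in the order of the human gene. In hHGF-NSG hosts it was at 57.6 ± 6.96 (n = 3), 44 ± 8.99 (n = 4) and 39.1 ± 3.82 FPKM (n = 3). Human GUSB did not follow that order there, its 6 week values lying within the range of those at 2 weeks. The assignment of reads that fit both genomes was not given in the sources used here. Its part in these human and mouse levels was not tested.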

How the data were processed

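Total RNA of 22 xenografts had been isolated using TRIzol (per the labels' protocols). The authors deposited 1 table of FPKM per human gene and 1 per mouse gene, per the file headers; the submitters' processing notes name GRCh38, hg38, mm10 and DESeq2, without roles. The aligner, annotation, strand setting and separation of species were not given in the sources used here. Read counts were recovered from the spacing of low FPKM values (100% whole within 0.05 read). No pair of replicates agreed within sampling noise (chi-square per degree of freedom 4.04 or more).

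Genes with 3 or more samples at FPKM 1 or above were tested on log2(FPKM + 1) with limma 3.58.1 in R 4.3.3. The model had 1 mean per group over all 22 samples and empirical Bayes moderation with trend, and tests were two-sided. Benjamini-Hochberg adjustment ran over all 16029 genes, with a threshold of 0.05. The script was tested on simulated data. Alternatives were a pseudocount of 0.1, no filter, median-ratio scaling, a replicate block, limma voom on recovered reads with plain totals, and leaving out each sample. The median-ratio factor was 1.008 in every sample, so that alternative could hardly change a call. Python 3.11.15, numpy 2.4.6, pandas 2.3.3 and matplotlib 3.10.9 were used.

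The 41 genes and the lists were chosen with earlier results of these data known. All 41 genes are named. From each further list up to 2 genes per direction are named, ranked among genes called in both hosts at 6 weeks by the lesser of their 2 changes. 1 gene that this rule names is not reported here. The rule for promoter windows, members called in every treatment comparison whose promoter holds CACGTG, took none. Coordinates are those of the human table (hg38), and promoter windows come from RefSeq (GRCh38.p14).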

Additional observations from a re-analysis of the deposited data

Results flagged for a closer look

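Of 164 groups of 4 samples screened (41 genes in 4 groups), 12 had a library apart from the other 3, where chance alone gives about 1 in 20. In NSG 6 weeks replicate 3 this held for CD63 (298 FPKM, others 176 to 192), PSAP (413, others 305 to 318), ATP6V0D1 (7.39, others 5.83 to 5.99) and ATP6V1H (9.91, others 6.58 to 6.88), all on the high side. Without that library 17 genes were called in NSG at 6 weeks and 10 between 6 and 2 weeks. In the naive NSG group, TFEB was at 1.24 FPKM in replicate 4 (others 0.695 to 0.724), HEXA at 3.04 in replicate 2 (others 2.21 to 2.32), ATG5 at 11.1 in replicate 2 (others 8.45 to 8.88) and UVRAG at 3.78 in replicate 1 (others 4.3 to 4.36). NPC1 was at 1.43 FPKM in NSG 2 weeks replicate 1 (others 2.47 to 2.62), and NAGLU at 4.06 in NSG 6 weeks replicate 2 (others 4.72 to 4.76). CTSB was at 23.2 FPKM in hHGF-NSG 2 weeks replicate 3 (others 31.0 to 32.2), and SQSTM1 at 28.7 in hHGF-NSG 2 weeks replicate 4 (others 24.5 to 24.8).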

How the results depend on the processing

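Calls kept under all alternatives tried were 11 of 18 (NSG, 2 weeks), 9 of 21 (hHGF-NSG, 2 weeks), 14 of 21 (NSG, 6 weeks), 17 of 21 (hHGF-NSG, 6 weeks) and 8 of 11 (6 against 2 weeks), and 10, 8, 9, 7 and 5 further genes were called under some alternative. Leaving out 1 sample gave 14 to 18, 12 to 22, 16 to 22, 19 to 23 and 9 to 12 calls, and 0 in each host comparison and in the F-test; hHGF-NSG at 2 weeks without hHGF-NSG naive replicate 2 (12) was the only count that moved by over 1.5 times. The one reversal was ATP6V0D1 at 2 weeks in NSG, -0.02 and not called, which with plain totals was called higher at 0.25 (adjusted p = 0.0232); plain totals move the median of all genes by 0.28 there. Same-numbered samples did not deviate together (median correlation -0.02 over 51 pairs, 0.02 over 150 other pairs). Such correlations cannot show whether the numbers pair the samples by design, and the labels do not say. With the replicate block the counts were 18, 17, 20, 20 and 10, and 0 for the hosts and the F-test. Depth limits the lowest genes: CLN3, at 1 to 35 reads a library, did not pass the filter.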
